A study of Drosophila melanogaster with 6 samples.

Results

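The proteasome is the barrel-shaped protease that degrades ubiquitin-tagged proteins in all cells. Its core particle is built of stacked rings, the outer ones of alpha subunits, which gate the entry, and the inner ones of beta subunits, some of which cut peptide bonds. The regulatory particle caps the core: its base holds a ring of Rpt ATPases that unfold the substrate, together with large Rpn scaffold subunits, and its lid holds further Rpn subunits, one of which removes the ubiquitin chain. In growing tissues such as the imaginal discs of fly larvae, most subunits are made by single genes used in all cells, and several have a second, related gene that is known mainly from the testis.

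The genes described here are those whose single gene symbol starts with Prosalpha, Prosbeta, Rpn or Rpt followed by a digit, the names of the fly proteasome subunits. The table of 11325 array features held 32 of them, among 11303 features tested after 22 further features of a gene already represented were dropped. They comprised 6 core alpha, 6 core beta, 10 Rpn and 4 Rpt subunits, together 26 genes without a suffix, and 6 paralogues whose symbols carry the suffix T or R, in some with a further digit. A further 16 genes with such names in the RefSeq gene table were not analysed here, among them Prosbeta1, Rpn9, Rpn10, Rpt1 and Rpt6, and 2 features listed with both Prosalpha1 and Prosalpha1R were not named.

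Total RNA of wing imaginal discs of Drosophila melanogaster, the larval epithelia that form the wing and dorsal thorax, was measured on 6 single-channel arrays. In 3 samples the apterous (ap) driver, active in dorsal cells of the disc, expressed the transgene labelled YAP/Yki together with RNA interference against dTcf/Pan, the DNA-binding effector of Wg signalling (Yki + pan RNAi below). In the other 3 the same driver expressed YAP/Yki alone (Yki), Yki being the coactivator through which the Hippo pathway controls growth. All discs were dissected 7 days after the transgenes were induced, ventral cells lie outside the domain of the driver, and no sample is titled as a disc without the transgene or with a control hairpin. Age in other terms is not given in the labels, and pan itself was not analysed here, so its depletion was not checked.

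The deposited values lay between 2.74 and 14.06, with array means of 8.516 to 8.524. They were taken as log2 levels from this range and from the submitters' use of log2 fold changes, and the percentages given below rest on that scale. Arrays correlated at 0.994 to 0.996 within groups and 0.98 to 0.986 between them. Of 11 wing disc markers, 10 were measured, and their mean level was 10.05 to 10.17 in Yki + pan RNAi arrays and 10.36 to 10.41 in Yki arrays. Of them 5 fell and 4 rose, where 13.4% of all features fell and 12.1% rose. Among them nub, pdm2 and rn were at −1.12, −1.22 and −0.70 and bi at 0.63. The driver gene ap, chosen after its values were seen, was at 0.37 (limma adjusted p = 0.00182). Whether the share of driver cells or the dose of the transgenes differed was not tested. Changes are differences of mean log2 levels (Yki + pan RNAi minus Yki), each ± the SE from a limma fit over all features, with n = 3 arrays per group. A gene is said to have fallen or risen at a Benjamini-Hochberg adjusted p under 0.05 over the 11303 features. Nothing in the labels says that the arrays came from separate crosses, so the p-values rest on the spread of these arrays, possibly technical only, and the number of arrays limits the precision.

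Transcripts of the proteasome were lower with pan RNAi in every class of subunit without a suffix, by small and similar amounts. Of the 26 genes, 22 fell and 0 rose, while all 26 had a change below 0 and an unadjusted p under 0.05. Over all features tested 13.4% fell and 12.1% rose. The median change of the 26 was −0.28, a level 17.5% lower, where the median of all features was 0.03. The changes ran from −0.42 for Prosbeta3 to −0.13 for Prosalpha2, and no member changed 2-fold, as 1.53% of all features did at an adjusted p under 0.05. In bulk discs, fewer cells with a high level and less RNA per cell cannot be told apart.

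In 25 of the 26 genes the 3 Yki + pan RNAi arrays all lay below the 3 Yki arrays, against 21.6% of all features; of all features 23.4% lay wholly above, and 0 of these 26 did. The exception was Prosbeta5. The 95% intervals of all 26 lay below 0, and 24 of them held the median of −0.28. The remaining pair, Prosalpha2 and Rpt3, had intervals above that median, at −0.24 to −0.02 for Prosalpha2 and −0.27 to −0.04 for Rpt3.

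**Figure D1:**
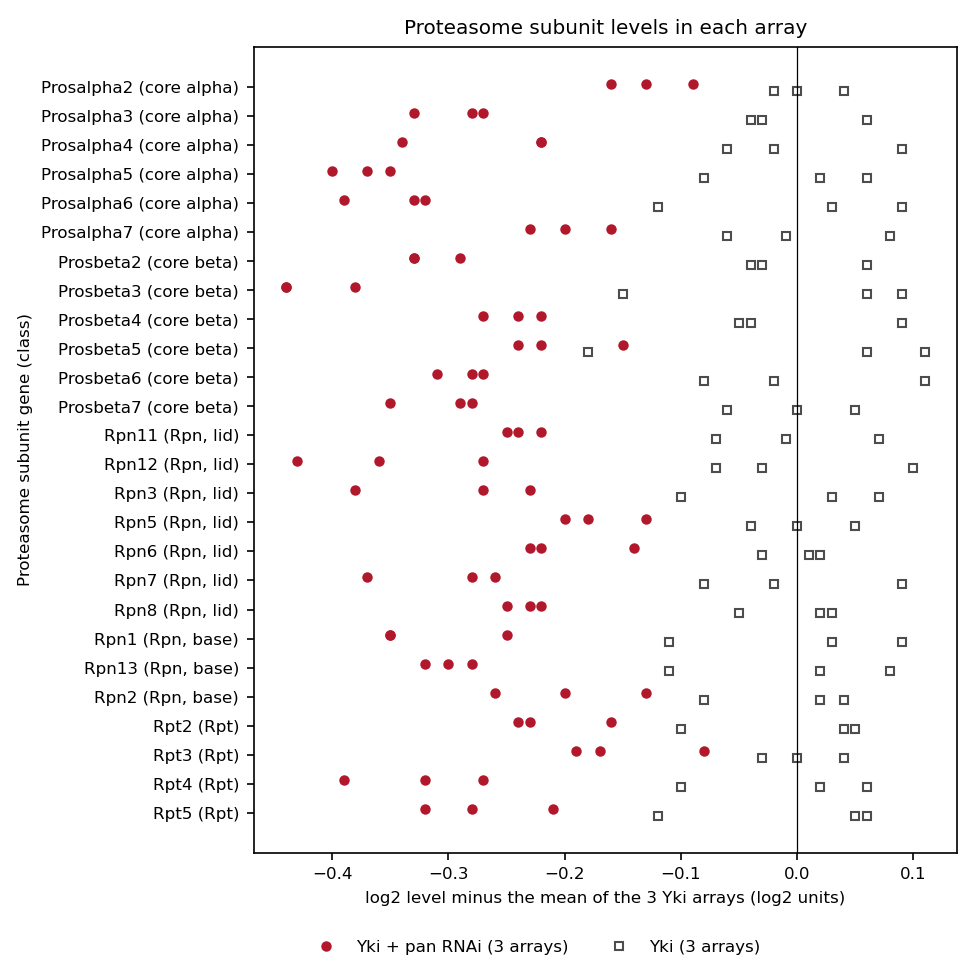
Level of each of the 26 proteasome subunit genes without a suffix in each array, as the log2 level minus the mean of the 3 Yki arrays (x axis), with genes and their class on the y axis. Filled circles are the 3 Yki + pan RNAi arrays and open squares the 3 Yki arrays; the circles lie left of all squares for 25 genes, and for Prosbeta5 the Yki array at 11.18 lies among the circles.

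The count of fallen members depended on which arrays entered the fit, whereas its direction did not. It was 12 without Yki + pan RNAi replicate 1, 14 without Yki + pan RNAi replicate 2, 13 without Yki replicate 2 and 13 without Yki replicate 3, where the share of all features that fell was 8.66% to 10.3%. Without Yki + pan RNAi replicate 3 it was 19 (10.8% of all features), and without Yki replicate 1 it was 22 (11.3%). The number that rose was 0 in each of these fits, and the median of the 26 ranged from −0.30 to −0.24. With each array centred on its median, 14 members fell and 0 rose, with a median of −0.22, and over all features 1086 fell and 2086 rose, in place of 1518 and 1369.

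Markers of other cell types differed between the same groups, and their part in the proteasome result was not tested. The counts below stand beside 13.4% of all features that fell and 12.1% that rose. Of 5 measured haemocyte markers (8 listed), 4 rose, Hml by 0.94, and 1, Ppn, fell by 1.81, with a mean level of 7.83 to 8.04 with pan RNAi and 7.61 to 7.81 in Yki discs. Of 6 markers of the myoblasts that adhere to the disc (8 listed), 5 fell and 1 (sns) rose, with a mean level of 8.03 to 8.13 with pan RNAi and 8.68 to 8.76 in Yki discs. Of 5 tracheal markers (7 listed), 4 fell and 0 rose, at 10.52 to 10.63 with pan RNAi and 10.98 to 11.03 in Yki discs. Their levels were unlike: btl had means of 6.85 with pan RNAi and 7.22 in Yki discs. Gasp, serp, verm and pio had means of 11.05 to 12.15 with pan RNAi and 11.69 to 12.33 in Yki discs. Bulk values do not show which cells held these transcripts. Of 3 fat body markers (8 listed), 0 fell and 0 rose, at 6.47 to 6.61 with pan RNAi and 6.69 to 7.16 in Yki discs. Muscle and neuron markers, 5 of 10 measured, had 1 member that rose and 0 that fell, at 6.96 to 7.08 with pan RNAi and 6.89 to 6.99 in Yki discs. It was elav (0.25, adjusted p = 0.018), whose adjusted p was 0.0536 to 0.0642 without Yki + pan RNAi replicate 1 or 2 or Yki replicate 2. The other members, nSyb (0.07), brp (−0.12), Tm2 (0.10) and up (0.08), did not pass (adjusted p = 0.184 to 0.611). Their group means were 6.10 to 6.48, where those of elav were 10.06 and 9.81.

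Within an array the 26 genes had similar deviations. Set against each gene's own mean over the 6 arrays, the median of the 26 was −0.14, −0.13 and −0.10 in Yki + pan RNAi replicates 1, 2 and 3, against 0.06, 0.13 and 0.21 in Yki replicates 1, 2 and 3. The Yki arrays were thus farther apart than those with pan RNAi, and Yki replicate 3 held the highest value of 22 of the 26 genes. The same deviation taken over all features was 0.00 to 0.01 in Yki + pan RNAi arrays and −0.01 in each Yki array. The lowest value of each gene lay in Yki + pan RNAi replicate 1 for 9 genes, replicate 2 for 12 and replicate 3 for 5. Within an array the 26 deviations had an SD of 0.04 to 0.06.

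**Figure D2:**
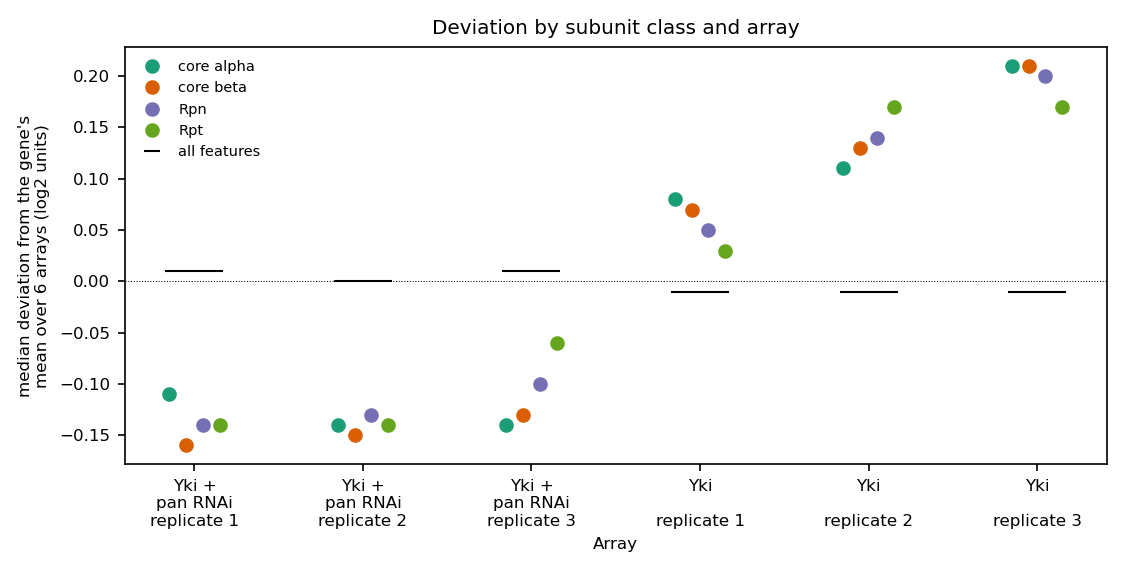
Median deviation of the genes of each class from their own means over the 6 arrays, in log2 units (y axis), for each array (x axis); black bars give the same over all features. All classes lie between −0.16 and −0.06 in the Yki + pan RNAi arrays and between 0.03 and 0.21 in the Yki arrays.

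Among the core alpha subunits, 5 of 6 fell, with a median of −0.28. Prosalpha5 was at 8.10, 8.12 and 8.07 in Yki + pan RNAi arrays, against 8.39, 8.49 and 8.53 in Yki arrays, and fell by 0.38 ± 0.05 (adjusted p = 0.00375). Prosalpha3, whose counterpart in yeast forms part of the gate of the core, was at 9.44, 9.43 and 9.38 with pan RNAi and 9.67, 9.68 and 9.77 in Yki discs, a change of −0.29 ± 0.05 (adjusted p = 0.00754). Prosalpha6 was at 9.65, 9.71 and 9.72 with pan RNAi and 9.92, 10.07 and 10.13 in Yki discs, a change of −0.35 ± 0.06 (adjusted p = 0.00981). For these 3 genes the groups did not overlap, and each passed with any 1 array left out.

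Prosalpha4 (−0.26 ± 0.06, adjusted p = 0.0215) and Prosalpha7 (−0.20 ± 0.05, adjusted p = 0.0325) fell as well. The call for Prosalpha7 ended when any 1 array was left out (adjusted p = 0.0518 to 0.0938). Prosalpha2 did not pass: it was at 12.88, 12.85 and 12.92 with pan RNAi and 12.99, 13.01 and 13.05 in Yki discs (−0.13 ± 0.04, adjusted p = 0.0753). Its groups did not overlap, and it had the smallest change of the 26 genes.

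Of the core beta subunits, 5 of 6 fell, with a median of −0.30. Of the genes for the catalytic subunits, Prosbeta2 and Prosbeta5 were measured. Prosbeta2, which carries the trypsin-like site, was at 11.59, 11.59 and 11.63 with pan RNAi and 11.88, 11.89 and 11.98 in Yki discs, and fell by 0.31 ± 0.05 (adjusted p = 0.00491). Prosbeta5, which carries the chymotrypsin-like site, was at 11.14, 11.12 and 11.21 with pan RNAi and 11.18, 11.42 and 11.47 in Yki discs. Its change was −0.20 ± 0.08 (95% interval −0.39 to −0.01, adjusted p = 0.113), and Yki replicate 1 lay inside the range of the pan RNAi arrays. Without that array the change was −0.29 (adjusted p = 0.0176).

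The other beta genes encode subunits without an active site. Prosbeta3 had the largest change of the 32 genes, with levels of 10.22, 10.22 and 10.28 with pan RNAi and 10.51, 10.72 and 10.75 in Yki discs (−0.42 ± 0.07, a level 25.2% lower, adjusted p = 0.00809). Prosbeta7, whose counterpart in yeast helps to join the parts of the core, was at 7.86, 7.92 and 7.93 with pan RNAi and 8.21, 8.15 and 8.26 in Yki discs (−0.30 ± 0.05, adjusted p = 0.00693). The groups did not overlap in either gene. Prosbeta6 fell by 0.29 ± 0.06 (adjusted p = 0.0141) and Prosbeta4 by 0.24 ± 0.05 (adjusted p = 0.0174, and 0.0634 without Yki + pan RNAi replicate 1).

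In the lid of the regulatory particle, all 7 measured Rpn genes fell, with a median of −0.23. Rpn12, a scaffold subunit that in yeast joins the lid late in its assembly, was at 11.03, 10.96 and 11.12 with pan RNAi and 11.32, 11.36 and 11.49 in Yki discs, and fell by 0.35 ± 0.07 (adjusted p = 0.00998). Rpn8, the partner of the deubiquitinase Rpn11, was at 11.52, 11.51 and 11.49 with pan RNAi and 11.69, 11.76 and 11.77 in Yki discs (−0.23 ± 0.04, adjusted p = 0.0112). Rpn7 was at 10.72, 10.61 and 10.70 with pan RNAi and 10.90, 10.96 and 11.07 in Yki discs (−0.30 ± 0.06, adjusted p = 0.0132). These 3 passed with any 1 array left out.

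Rpn11, which cuts ubiquitin chains from substrates, fell by 0.23 ± 0.05 (adjusted p = 0.0172), and the scaffold genes Rpn3, Rpn6 and Rpn5 by 0.29, 0.20 and 0.17. With 1 array left out, Rpn11 passed without Yki + pan RNAi replicate 3 or Yki replicate 1 (adjusted p = 0.0388 and 0.0191) and had an adjusted p of 0.0522 to 0.0578 without any of the others. Rpn3 did not pass without Yki + pan RNAi replicate 1, Yki replicate 2 or Yki replicate 3 (0.0659 to 0.0688), Rpn6 passed only without Yki + pan RNAi replicate 3 (0.0261), and Rpn5 only without Yki replicate 1 (0.0466). Sem1, a small lid subunit outside the naming rule, fell by 0.34 ± 0.05 (adjusted p = 0.00425), at 8.03, 8.06 and 8.09 with pan RNAi and 8.46, 8.36 and 8.37 in Yki discs.

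The base is described by 3 Rpn and 4 Rpt genes. Rpn1, a docking site for ubiquitin carriers and for Usp14, was at 10.64, 10.64 and 10.74 with pan RNAi and 10.88, 11.02 and 11.08 in Yki discs (−0.32 ± 0.07, adjusted p = 0.0159). Rpn13, a ubiquitin receptor that holds the deubiquitinase Uch-L5, was at 8.47, 8.49 and 8.45 with pan RNAi and 8.66, 8.79 and 8.85 in Yki discs (−0.30 ± 0.06, adjusted p = 0.0128). Rpn2, the scaffold to which Rpn13 binds, was at 11.11, 11.17 and 11.24 with pan RNAi and 11.29, 11.41 and 11.39 in Yki discs. Its groups did not overlap, and its change of −0.19 ± 0.06 missed the threshold (adjusted p = 0.0515, and 0.0424 without Yki replicate 1).

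Of the Rpt ATPases, 3 of 4 fell, with a median of −0.24. Rpt4 was at 11.14, 11.07 and 11.19 with pan RNAi and 11.36, 11.52 and 11.48 in Yki discs (−0.32 ± 0.06, adjusted p = 0.0113). Rpt5, whose tail in yeast docks into the alpha ring, was at 11.21, 11.25 and 11.32 with pan RNAi and 11.41, 11.59 and 11.58 in Yki discs (−0.27 ± 0.06, adjusted p = 0.0262). Rpt2, which has such a tail as well, was at 10.81, 10.80 and 10.88 with pan RNAi and 10.94, 11.08 and 11.09 in Yki discs (−0.21 ± 0.06, adjusted p = 0.0388).

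In all 4 Rpt genes the groups did not overlap. Rpt3 was at 10.72, 10.70 and 10.81 with pan RNAi and 10.86, 10.89 and 10.93 in Yki discs, a change of −0.15 ± 0.05 that did not pass (adjusted p = 0.0633). Rpt4 passed with any 1 array left out. Rpt5 and, of the base genes above, Rpn1 passed without Yki + pan RNAi replicate 3 or Yki replicate 1, and with any other array left out their adjusted p was 0.0706 to 0.0884 for Rpt5 and 0.0502 to 0.058 for Rpn1. Rpt2 passed only without Yki replicate 1 (adjusted p = 0.0229), and Prosalpha4 without Yki + pan RNAi replicate 3 or Yki replicate 1 (0.0384 and 0.0309).

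**Figure D3:**
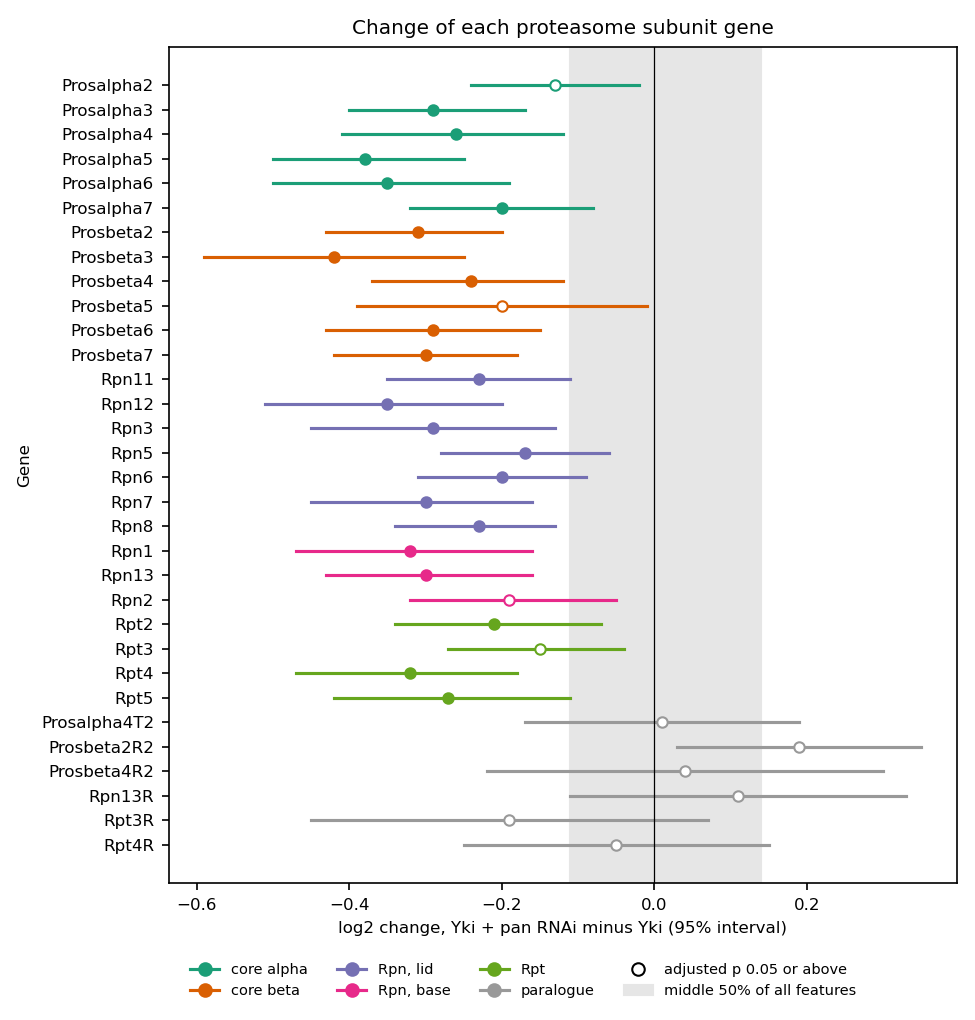
Change of each of the 32 genes (log2, Yki + pan RNAi minus Yki, x axis) with its 95% interval, coloured by class; filled points passed an adjusted p of 0.05 and the grey band runs between the quartiles of all features (−0.11 to 0.14). The intervals of the 26 genes without a suffix lie left of 0, and those of 5 of the 6 paralogues cross it.

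By class the medians were −0.28 for core alpha, −0.30 for core beta, −0.26 for the 10 Rpn genes and −0.24 for the Rpt genes. Taken as particles, 10 of 12 core genes fell with a median of −0.29, and 12 of 14 genes of the regulatory particle fell with a median of −0.25. These counts depended on the fit. Without Yki + pan RNAi replicate 1, Yki replicate 2 or Yki replicate 3, 5 regulatory genes fell in each case, where 7, 8 and 8 core genes did. Without Yki + pan RNAi replicate 2 the counts were 6 regulatory and 8 core genes, and with arrays centred on their medians 7 and 7. They were 10 and 9 without Yki + pan RNAi replicate 3, 12 and 10 without Yki replicate 1, and 9 and 9 with the replicate block. Over all features 8.66% to 11.3% fell in these fits. The median SE of a single member was 0.06, and no test between classes was made. The 26 genes lie on 5 chromosome arms, with 4 of 4 fallen on 2L, 6 of 7 on 2R, 4 of 4 on 3L, 6 of 8 on 3R and 2 of 3 on X. Of 52 genes that are the nearest measured neighbours of the 26 in the RefSeq order, 12 fell (23.1%, against 13.4% of all features) and 7 rose (13.5%, against 12.1%), with a median of 0.02; the difference in shares was not tested.

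Changes of the 6 paralogues lay on both sides of 0. Of them 0 fell and 0 rose in limma, where 13.4% and 12.1% of all features did, so among 6 genes these counts say little. In limma 1 had an unadjusted p under 0.05. The median of the 6 paralogues was 0.03. It was −0.03 after quantile normalization, −0.06 after cyclic loess and −0.01 without Yki replicate 1. Their values in single arrays lay between 5.64 and 6.38. Each feature of the deposited table reached at least 5.91 in 3 or more arrays, so the paralogues lie at its low end, and these values do not show that their transcripts are present. Rpt3R reached 5.91 in 1 Yki + pan RNAi array and 2 Yki arrays, the fewest the table allows. The difference between the paralogues and the other members was not tested.

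Prosbeta2R2, a relative of the trypsin-like subunit, was at 5.98, 6.01 and 6.16 with pan RNAi and 5.89, 5.78 and 5.92 in Yki discs. It was the 1 paralogue of 6 whose groups did not overlap, with the pan RNAi arrays above, as in 23.4% of all features. Its change of 0.19 ± 0.07 (95% interval 0.03 to 0.35) did not pass (adjusted p = 0.0881). Prosbeta2R2 reached 5.91 in all 3 Yki + pan RNAi arrays and in 1 Yki array. If features were kept by that level, its place in the table rested on the group where it lay higher. Its separation is then no sign of a rise. Prosalpha4T2, known from the testis, was at 6.20, 6.02 and 5.98 with pan RNAi and 5.95, 6.11 and 6.09 in Yki discs (0.01 ± 0.08, adjusted p = 0.912).

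Prosbeta4R2 was at 6.20, 6.12 and 6.35 with pan RNAi and 5.99, 6.18 and 6.38 in Yki discs (0.04 ± 0.11, adjusted p = 0.807). Rpn13R was at 6.37, 6.03 and 6.16 with pan RNAi and 6.12, 5.98 and 6.13 in Yki discs (0.11 ± 0.09, adjusted p = 0.43). In both genes the arrays of the groups were interleaved. Rpt4R, at 5.89, 5.96 and 6.13 with pan RNAi and 6.16, 5.93 and 6.04 in Yki discs, also overlapped (−0.05 ± 0.08, adjusted p = 0.688). The signs of Prosalpha4T2, Prosbeta4R2 and Rpt4R were not stable: without Yki replicate 1 their changes were −0.04 for Prosalpha4T2, −0.06 for Prosbeta4R2 and 0.01 for Rpt4R. Rpt3R was at 5.71, 5.64 and 5.91 with pan RNAi and 5.78, 5.92 and 6.14 in Yki discs (−0.19 ± 0.11, 95% interval −0.45 to 0.07, adjusted p = 0.239, and 0.0408 after cyclic loess). Of 26 genes of the male germ line, 11 were measured, 1 rose (twe, 0.43 ± 0.07) and 0 fell, where 12.1% of all features rose. The changes of the 11 ran from 0.01 to 0.57, with a median of 0.15. In 4 of them the pan RNAi arrays lay wholly above, as in 23.4% of all features. Their mean level was 6.78 to 6.87 with pan RNAi and 6.57 to 6.69 in Yki discs, where the first quartile of feature means was 6.79.

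Genes that build or accompany the proteasome were compared next. Of 9 measured assembly factors and partners, 4 fell (44.4%, against 13.4% of all features) and 0 rose, with a median of −0.11. These were Sem1, the deubiquitinases Uch-L5 (−0.26 ± 0.05, adjusted p = 0.0128) and Usp14 (−0.27 ± 0.06, adjusted p = 0.0196), and Pomp (−0.31 ± 0.07, adjusted p = 0.0186), which matures the core. Pomp was at 9.78, 9.76 and 9.87 with pan RNAi and 9.99, 10.12 and 10.22 in Yki discs. The calls for Pomp and Usp14 ended without Yki + pan RNAi replicate 1 or 2 or Yki replicate 2 or 3 (adjusted p = 0.0534 to 0.0642 for Pomp, 0.0598 to 0.0693 for Usp14).

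Of 5 measured genes of the p97 unfoldase, which feeds extracted proteins to the proteasome, 2 fell (40%, against 13.4% of all features) and 0 rose. The median was −0.22. TER94, the unfoldase, was at 11.24, 11.27 and 11.21 with pan RNAi and 11.45, 11.49 and 11.55 in Yki discs (−0.26 ± 0.05, adjusted p = 0.00998). Its cofactor Ufd1 changed by −0.27 ± 0.06 (adjusted p = 0.0166, and 0.0519 to 0.0551 without Yki + pan RNAi replicate 1 or 2 or Yki replicate 2 or 3). Of 10 measured genes for ubiquitin and for conjugating enzymes or their relatives, out of 17 listed, 0 fell and 1 rose. Of all features 13.4% fell and 12.1% rose. The median of the list was −0.05, and the activating enzyme was not analysed here. The polyubiquitin gene Ubi-p63E lay at the low end of the table, with means of 5.70 with pan RNAi and 5.97 in Yki discs. Its values therefore say little about a fall. The gene that rose was vih, an E2 enzyme of the mitotic anaphase-promoting complex (0.30 ± 0.06, adjusted p = 0.0118).

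The list of cnc, the fly Nrf factor that is known to raise proteasome genes, with its partners and antioxidant targets had 9 measured members. Of these 0 fell and 2 rose, with a median of −0.04, where 13.4% of all features fell and 12.1% rose. Gclc, an enzyme of glutathione synthesis (0.23 ± 0.06, adjusted p = 0.0278), and rngo, a ubiquitin receptor of the Ddi1 family (0.18 ± 0.05, adjusted p = 0.0359) rose. Without Yki + pan RNAi replicate 1 or 2 or Yki replicate 2 or 3 both calls ended (0.0573 to 0.0873 for Gclc, 0.0539 to 0.107 for rngo), as did that of rngo without Yki replicate 1 (0.0848). Gclm, which also serves glutathione synthesis, and the thioredoxin reductase Trxr1, both chosen after their values were seen, lay lower in all pan RNAi arrays without passing, at −0.18 ± 0.06 (0.0535) and −0.14 ± 0.05 (0.0727). Genes of the list that fell numbered 2 without dim features (mean level under 7) and 1 with cyclic loess, with the variance trend and robust option together or with array weights. Of the features in these fits 20.6%, 14.5%, 15.3% and 15.6% fell. The cnc transcript, chosen after its values were seen, was at 8.88, 9.03 and 8.87 with pan RNAi and 8.85, 8.80 and 8.79 in Yki discs (0.11 ± 0.06, adjusted p = 0.204).

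Complexes whose subunits are related to those of the lid came after these. In the COP9 signalosome, which controls cullin ubiquitin ligases, the median was −0.19. Of 8 measured genes 5 fell (62.5%, against 13.4% of all features) and 0 rose. The count was 2 without Yki replicate 2 or 3, and 3 without Yki + pan RNAi replicate 1 or 2, with centred arrays, with quantile normalization and with the replicate block. Over all features 8.66% to 12.1% fell in these fits. CSN8 was at 9.43, 9.44 and 9.30 with pan RNAi and 9.99, 9.90 and 9.93 in Yki discs (−0.55 ± 0.06, adjusted p = 0.00127). CSN5, the relative of Rpn11, changed by −0.23 ± 0.05 (adjusted p = 0.0121), CSN6 by −0.26 ± 0.05 (0.0148, and 0.0558 and 0.0535 without Yki replicates 2 and 3) and alien by −0.17 ± 0.04 (0.0318). With 1 array left out, alien passed only without Yki + pan RNAi replicate 3 (0.044). The last of the 5, CSN1b, named after its values were seen, was near the threshold (−0.21 ± 0.06, adjusted p = 0.0488). In eIF3, the translation initiation factor that shares these subunit families, 2 of 14 fell (14.3%, against 13.4% of all features) and 0 rose, with a median of −0.02. The count was 5 without dim features, with the variance trend and robust option together or with array weights. In these fits 20.6%, 15.3% and 15.6% of the features fell, so the place of eIF3 beside all features depended on the fit. The eIF3 count was 4 without Yki replicate 1 (11.3% of all features). It was 1 without any other single array (8.66% to 10.8%), with centred arrays (9.61%) or with the replicate block (10.4%).

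The genes of eIF3 that fell were eIF3j (−0.34 ± 0.05, adjusted p = 0.00355) and eIF3k (−0.19 ± 0.04, adjusted p = 0.0195). With 1 array left out, eIF3k passed only without Yki replicate 1 (0.0298). In CCT, the ring-shaped chaperonin that folds actin and tubulin, 6 of 8 fell (75%, against 13.4% of all features) and 0 rose. The median was −0.30. CCT3 was at 10.36, 10.28 and 10.30 with pan RNAi and 10.74, 10.76 and 10.89 in Yki discs (−0.48 ± 0.06, adjusted p = 0.00213). CCT5, CCT1 and CCT8 fell by 0.41, 0.38 and 0.33, and these 4 passed with any 1 array left out. Each list shares its arrays with the proteasome genes, and no test between lists was made.

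**Figure D4:**
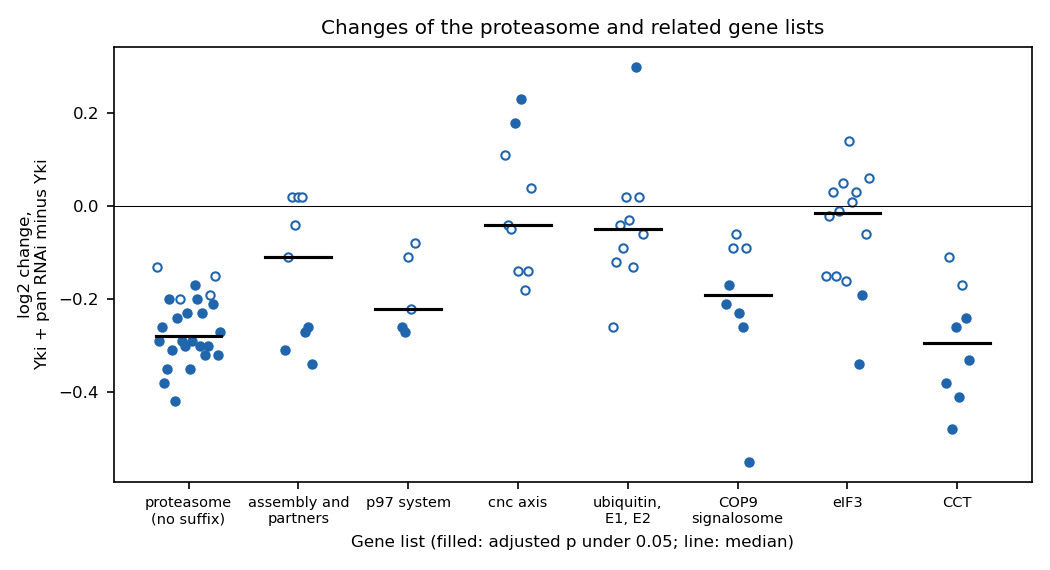
Change (log2, Yki + pan RNAi minus Yki, y axis) of each measured gene of the proteasome without a suffix and of 7 related lists (x axis), with filled points for adjusted p under 0.05 and a line at the median of each list. The medians are −0.28 for the proteasome and −0.30 for CCT, and −0.02 for eIF3.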

How the data were processed

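Wing disc RNA was measured on 6 single-channel arrays, grouped by the sample titles. The values analysed, taken as log2 levels, are those the authors deposited as a single expression table; a second deposited table differed by at most 5.0e-09. How signals were background-corrected and normalized was not given in the sources used here. Per the labels, the submitters worked at gene level with limma.

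Features were named from the platform annotation: 10156 of 11325 had 1 symbol, 313 several and 856 none. Names of 9975 of 10139 named features were updated through Entrez numbers in a RefSeq table of Release 6 plus ISO1 MT. For a gene with several features the one with the highest mean was kept, which left 11303. Groups were compared with limma 3.58.1 in R 4.3.3 (lmFit, eBayes, no covariate), adjusted by the Benjamini-Hochberg method over all features, and the code was tested on simulated data.

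Members and lists were chosen with earlier results of these data known. Values per array are given, by rule, for the 3 lowest p in each class, the catalytic subunits, paralogues and members that did not pass, and list genes for up to 4 with the lowest p among those that passed. Alternatives were the other table, 3 normalizations, dim features left out, averaged features, a variance trend with the robust option, array weights, a replicate block and each array left out. Sequences were not used here, so the planned search for promoter motifs was not run.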

Additional observations from a re-analysis of the deposited data

How the results depend on the processing

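Over 474 values of single members under the alternatives, 395 kept their direction and side of the threshold, 55 missed it, 13 newly passed and 11 changed sign. Those that changed sign were all in paralogues and did not pass. Prosalpha4T2 was at −0.04 after quantile normalization, −0.07 after cyclic loess and −0.05 to 0.06 with 1 array left out; Prosbeta4R2 was at −0.02, −0.04 and −0.06 to 0.14 under the same alternatives. Rpt4R was at 0.00 with centred arrays and −0.12 to 0.01 with 1 array left out. The number of members that rose stayed 0 under every alternative run. With 1 array left out, 12 to 22 members fell, 1744 to 2435 features changed over the whole table (main count 2887), and of the 7 related lists 11 to 22 genes fell and 1 to 3 rose (19 and 3 with all arrays). The low ends came without Yki + pan RNAi replicate 1 and without Yki replicates 2 and 3, and the 1 list gene that rose also without Yki + pan RNAi replicate 2. Centring each array on its median gave 14 fallen members, 12 fallen list genes and medians of −0.22 for the members without a suffix, −0.22 for core alpha, −0.24 for core beta and −0.18 for the lid. It moves the median of all features from 0.03 to 0.09, and the difference between members and all features stays −0.31. The paralogue median was −0.03 after quantile normalization, −0.06 after cyclic loess and −0.01 to 0.08 with 1 array left out. After quantile normalization 20 members fell (12.1% of all features), and after cyclic loess 23, Rpt3R among them (14.5% of all features). Without dim features (mean under 7) 25 members fell, where 20.6% of the features left did. With a variance trend and the robust option together 25 fell (15.3% of all features), and with array weights 26 (15.6%). With centred arrays the share of all features was 9.61%. Why the counts differ was not tested.

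Replicate numbers occur in both groups. Deviations of same-numbered arrays correlated at −0.13, −0.10 and 0.16, and those of differently numbered arrays at −0.28 to 0.34. With 3 arrays per group these correlations cannot show whether same-numbered arrays were handled together, and the labels do not say. With the replicate block 18 members fell, 0 rose, and 2159 features changed (10.4% of all features fell).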
